A study of Homo sapiens with 3 samples.

Results

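The locus of the miR-221 and miR-222 primary transcript held 78 of the 41836 m6A regions listed for nuclear RNA of MDA-MB-231 cells. N6-methyladenosine (m6A) is adenosine with a methyl group that the complex of METTL3 and METTL14 adds in RNA. The members were all regions, on either strand, whose midpoint lay between 45600 and 45712 kb of chromosome X in hg19, a window of 112 kb. The members were thus chosen by their position in this list, and the window was drawn around regions seen to lie close together. Their number, strand and spacing chose them and are given as a description, with no test. Of the 78 regions, 77 lay on the minus strand, the strand of both microRNAs, and 1 on the plus strand. The list as a whole had 24007 of its 41836 regions on the minus strand, and chromosome X 993 of 1595.

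MDA-MB-231 is an established human breast cancer cell line. RNA of the separated nuclei was pulled down with an anti-m6A rabbit antibody (2 libraries) or with rabbit IgG as the antibody control (1 library). No further treatment, genotype or time distinguishes the libraries, and the labels do not say whether the 2 m6A libraries came from separate cultures. The list gave 1 set of positions for the series and 0 columns of values for a single library, so neither the depth, nor the enrichment over IgG, nor the agreement of the m6A libraries can be given, and all values are single values without a replicate error.

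MicroRNAs are cut from long nuclear primary transcripts: the microprocessor, made of the nuclease DROSHA and the RNA-binding protein DGCR8, releases a hairpin, and DICER1 trims it in the cytoplasm to the mature strand. METTL3 is known to methylate primary microRNA transcripts, a mark that favours their recognition by DGCR8. miR-221 and miR-222 sit next to each other on the X chromosome, are made from a shared precursor, and are known in breast cancer for repressing the cell-cycle inhibitor CDKN1B (p27) and the oestrogen receptor ESR1. They are abundant in oestrogen receptor-negative lines of the basal type, to which MDA-MB-231 belongs.

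The mature strands show why the pair is treated as a family. RefSeq (GRCh38.p14) matched both members by symbol and listed 3 mature arms for them, written 5′ to 3′ with the seed, bases 2 to 8, in capitals.
hsa-miR-221-3p: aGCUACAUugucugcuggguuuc
hsa-miR-222-3p: aGCUACAUcuggcuacugggu
hsa-miR-222-5p: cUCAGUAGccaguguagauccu
The 3p arms share their first 8 bases, and 11 of the first 21 positions are identical. Among 2545 human mature sequences in the table, the seed GCUACAU was held by these 2 arms and by no other. The seed of miR-222-5p, UCAGUAG, was held by that arm alone.

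The hairpins are what the m6A regions surround, and each is shown whole with its listed mature arms in capitals.
MIR221 hairpin: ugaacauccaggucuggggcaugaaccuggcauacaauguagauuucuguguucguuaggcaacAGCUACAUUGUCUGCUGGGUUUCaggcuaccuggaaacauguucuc
MIR222 hairpin: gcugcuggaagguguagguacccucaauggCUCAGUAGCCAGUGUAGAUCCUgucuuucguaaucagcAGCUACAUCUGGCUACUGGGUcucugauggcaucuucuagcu
Each hairpin is 110 nt long. On the minus strand miR-222 comes first in the direction of transcription and miR-221 follows. The sequence GGAC, a common core of m6A sites, was the single motif searched, on the RNA strand. It occurred 0 times in either hairpin and 0 times in the 3 mature arms, whereas 427 of 1562 human hairpins (27.3%) and 17 of the 37 hairpins of 110 nt (45.9%) held it. The absence of these 4 letters says nothing of methylation at other sequences or outside the hairpins.

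The minus-strand regions ran from just past the hairpins to more than 100 kb upstream of them. Distances are given from the miR-222 hairpin, whose position in hg19 is known here to 0.1 kb (45606.4 kb, with miR-221 at 45605.6 kb), and positions are counted from 1 with the end included. The most downstream region lay at chrX:45605167-45605268, 1.1 to 1.2 kb downstream of miR-222, and the most upstream one at chrX:45709032-45709079, 102.6 to 102.7 kb upstream. Of the 77 minus-strand regions, 71 lay upstream of the miR-222 position, 4 between the 2 hairpin positions or touching that of miR-222, and 2 downstream of miR-221. The plus-strand region, at chrX:45613365-45613399 with a width of 35 nt, lay 7.0 kb upstream, among minus-strand regions.

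The limits of the window fell in empty sequence. The first minus-strand region lay 5.2 kb inside the lower limit and the last one 2.9 kb inside the upper limit. Outside the locus the next minus-strand regions were 112.7 kb further downstream, at chrX:45492424-45492473, and 590.1 kb further upstream, at chrX:46299143-46299189. The next plus-strand regions were 34.2 kb downstream, at chrX:45570919-45570945, and 1283.1 kb upstream, at chrX:46992131-46992179. The locus held 7.75% of the 993 minus-strand regions of chromosome X.

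**Figure D1:**
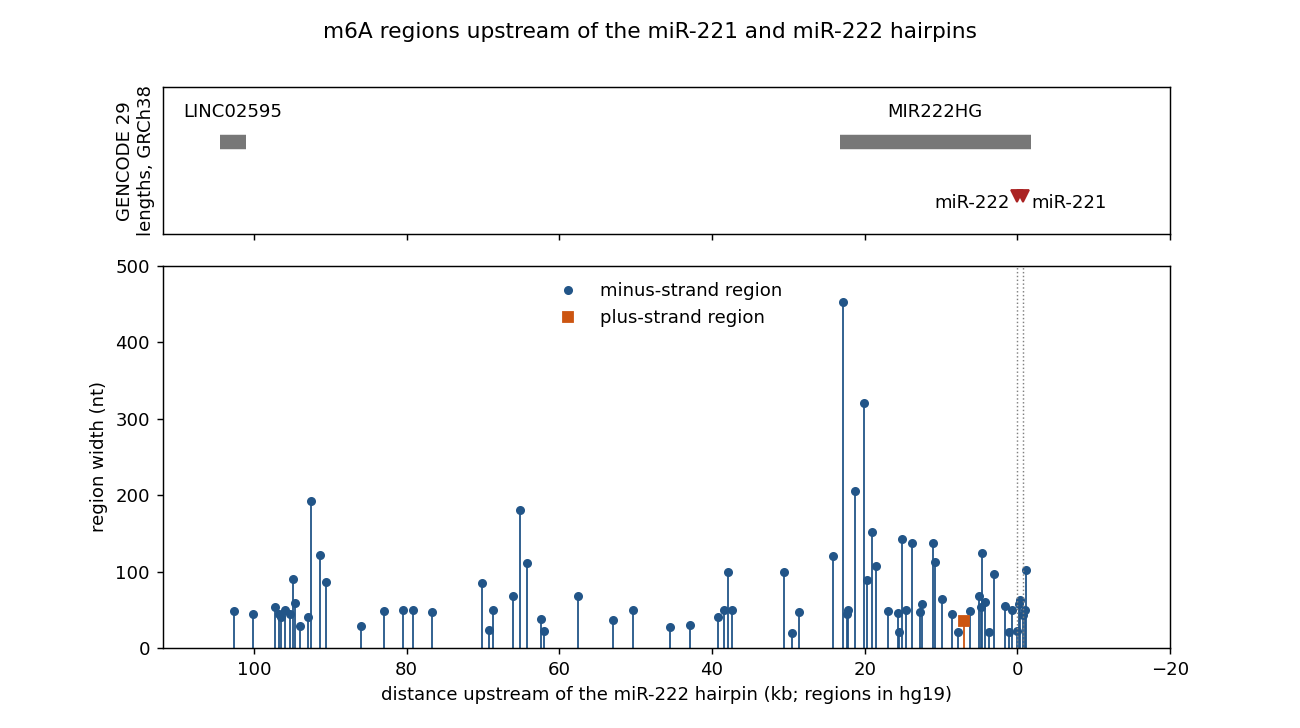
Width of each m6A region in nt against its distance upstream of the miR-222 hairpin in kb (lower panel, hg19; dotted lines mark the hairpin positions), with lengths of annotated genes measured in GRCh38 from the same hairpin (upper panel); transcription runs from left to right. Minus-strand regions (circles) crowd near the hairpins and at 90 to 100 kb, the widest region of 453 nt stands at 22.6 to 23.0 kb, and the plus-strand region (square) lies at 7.0 kb.

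Both hairpins had m6A regions close by on each side. Downstream of miR-221, the regions chrX:45605167-45605268 (102 nt) and chrX:45605383-45605431 (49 nt) lay 0.3 to 0.4 kb and 0.2 kb away. Directly upstream of miR-221, the region chrX:45605694-45605736 (43 nt) lay at 0.1 kb. Between the hairpins, the regions chrX:45605966-45606028 (63 nt) and chrX:45606172-45606229 (58 nt) followed at 0.4 and 0.6 kb upstream of miR-221. The region chrX:45606388-45606409, only 22 nt wide, lay at the miR-222 position itself, to within 0.1 kb. The hairpins are about as long as the precision of their positions, so it cannot be told here whether the regions of 43 and 22 nt touch them.

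Upstream of miR-222 the nearest regions were chrX:45607124-45607172 (49 nt) at 0.7 to 0.8 kb, chrX:45607478-45607498 (21 nt) at 1.1 kb and chrX:45608026-45608080 (55 nt) at 1.6 to 1.7 kb. Joined wherever the gap was at most 1 kb, these 9 regions formed 1 cluster of 2.91 kb that covered 15.9% of its length. Its members were narrow, with a median of 49 nt and a range of 21 to 102 nt, and the smallest gap of the locus, 114 nt, separated the 2 regions downstream of miR-221.

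**Figure D2:**
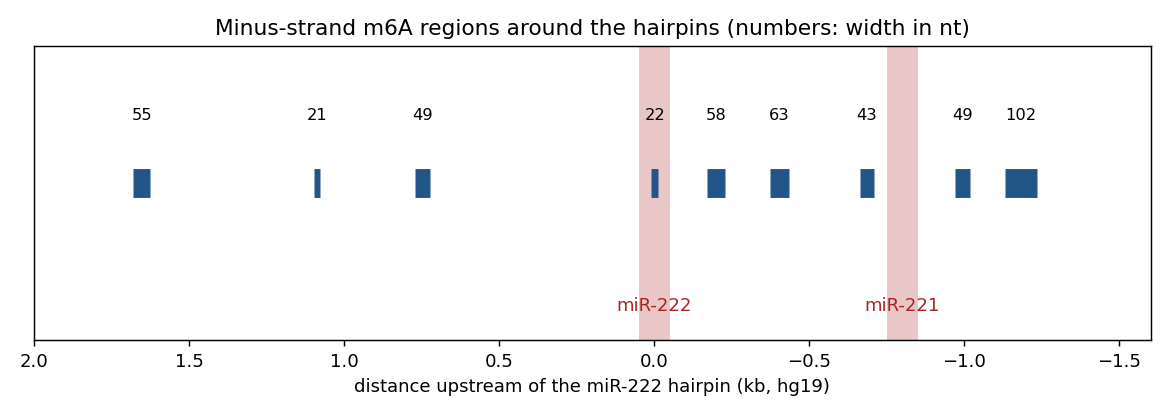
Minus-strand m6A regions (blue blocks, drawn to scale, with their width in nt above) against distance from the miR-222 hairpin in kb, with negative values downstream. Red bands show the 0.1 kb within which each hairpin position is known and not the hairpins' extent; the block of 22 nt falls in the miR-222 band and the block of 43 nt next to the miR-221 band.

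By distance, the m6A regions fell into a dense stretch near the hairpins, a sparse middle and a second dense stretch at the far end. In steps of 10 kb, 6 minus-strand regions lay downstream of the miR-222 position, 13 at 0 to 10 kb upstream, 13 at 10 to 20 kb, 8 at 20 to 30 kb and 5 at 30 to 40 kb. The counts were then 2 at 40 to 50 kb, 3 at 50 to 60 kb, 7 at 60 to 70 kb, 3 at 70 to 80 kb and 3 at 80 to 90 kb. At 90 to 100 kb the count was 12, close to those beside the hairpins, and 2 regions lay beyond 100 kb. The 3 stretches below were drawn along these steps after the counts were seen, so the contrast in number between them is built in.

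The stretch up to 30 kb upstream held 40 of the 77 minus-strand regions (51.9%) and 60.2% of the bases they covered. The middle, from 30 to 90 kb, held 23 regions (29.9%) and 23.4% of the covered bases over the longest distance of the 3. The upstream end, beyond 90 kb, held 14 regions (18.2%) and 16.4% of the covered bases. The median gap between neighbours was 527 nt in the stretch by the hairpins, 2402.5 nt in the middle and 620 nt at the upstream end. The 3 largest gaps of the locus measured 6.73 kb (from 30.6 to 37.3 kb upstream), 6.49 kb (70.1 to 76.6 kb) and 4.84 kb (45.5 to 50.3 kb), and all 3 lay in the middle.

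**Figure D3:**
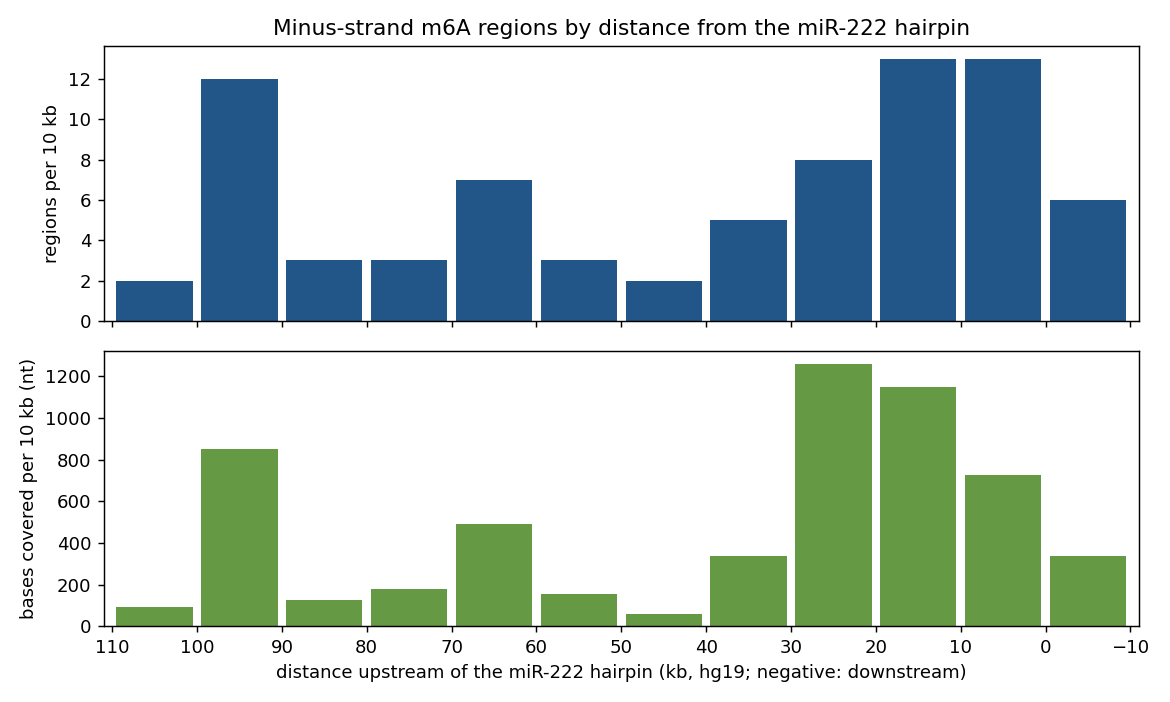
Number of minus-strand m6A regions per 10 kb (upper panel) and bases they cover per 10 kb in nt (lower panel), by distance upstream of the miR-222 hairpin in kb. The counts reach 13 next to the hairpins and 12 at 90 to 100 kb, against 2 to 7 from 40 to 90 kb; the covered bases peak at 1257 nt at 20 to 30 kb.

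Within the dense stretch, 1 of the 13 m6A regions at 0 to 10 kb upstream was wider than 100 nt, against 6 of 13 at 10 to 20 kb. At 3.1 to 5.1 kb upstream of miR-222, 6 neighbouring regions measured 97, 21, 60, 124, 53 and 68 nt in order of distance. Further regions lay at 6.2 kb (48 nt), 7.8 kb (21 nt), 8.5 kb (45 nt) and 9.9 to 10.0 kb (64 nt). From 10.7 to 15.2 kb, 4 of 7 regions were wider than 100 nt, at chrX:45617069-45617181 (113 nt), chrX:45617445-45617582 (138 nt), chrX:45620141-45620278 (138 nt) and chrX:45621454-45621595 (142 nt). Regions of 21, 46 and 48 nt followed at 15.5, 15.7 and 16.9 kb.

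The sparse middle consisted of single regions and small groups, most of them narrow. A group of 4 regions of 50, 99, 49 and 41 nt lay at 37.3 to 39.3 kb. The next 5 regions, at 42.9, 45.4, 50.3, 52.9 and 57.5 kb, were each alone within 2 kb and measured 30, 27, 50, 37 and 68 nt. At 62.0 to 70.1 kb a group held both regions of the middle that were wider than 100 nt, chrX:45670563-45670673 (111 nt) and chrX:45671419-45671598 (180 nt). From 76.6 to 86.0 kb, 5 widely spaced regions measured 47, 49, 49, 48 and 29 nt. At the upstream end the cluster chrX:45696880-45703688 opened, on its side nearer to the hairpins, with regions of 86, 121 and 192 nt, and its other 9 regions measured 29 to 90 nt. The last 2 regions, of 44 and 48 nt, stood apart at 100.1 and 102.6 kb.

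The widest m6A regions were concentrated 20 to 23 kb upstream of the hairpins. Width did not enter the choice of the members, and it is the number of bases in a region. The widest region, chrX:45628975-45629427, spanned 453 nt at 22.6 to 23.0 kb upstream and ranked 35th among all regions of the list. The next, chrX:45626363-45626682 (320 nt) and chrX:45627599-45627803 (205 nt), lay at 20 to 20.3 kb and 21.2 to 21.4 kb. Each of the other regions of the locus was narrower than these 3.

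The remaining 2 of the 5 widest lay far upstream, chrX:45698795-45698986 (192 nt) at 92.4 to 92.6 kb and chrX:45671419-45671598 (180 nt) at 65.0 to 65.2 kb. Regions wider than 100 nt numbered 12 of 40 in the stretch by the hairpins (30%), 2 of 23 in the middle (8.70%) and 2 of 14 at the upstream end (14.3%). Of the 21 regions at 10 to 30 kb upstream, 10 were wider than 100 nt. In the same stretches the median width was 56 nt by the hairpins, 49 nt in the middle and 48.5 nt at the upstream end.

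The 77 minus-strand regions had a median width of 49 nt (95% interval of the median from order statistics, 48 to 59 nt). The interval treats regions as independent, although neighbours may share a transcript. The quartiles of these regions were 44 and 90 nt and their range 19 to 453 nt. Over all regions of the list the median was 45 nt, with quartiles of 33 and 54 nt. Regions wider than 100 nt made up 20.8% of the locus (16 of 77), against 10.3% of the list. In all chains of at least 20 regions, joined over gaps of up to 10 kb, the share was 17.3% and the median width 49 nt, as in the locus. Since same-strand neighbours in the list are never closer than about 100 nt and the names of the regions contain the word merged, a joining of close regions could bear on these widths; its part in them was not tested. The width of 49 nt, the most frequent in the list, was held by 9 regions of the locus (11.7%), against 11.5% of all minus-strand regions.

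A second tight group of regions lay at the upstream end. Joined at gaps of up to 1 kb, the locus split into 27 clusters, 15 of them of 1 region. The cluster with the most regions was not at the hairpins but at 90.5 to 97.3 kb upstream (chrX:45696880-45703688), where 12 regions of 29 to 192 nt (median 51 nt) covered 12.5% of 6.81 kb. The cluster with the widest regions lay at 18.5 to 23.0 kb (chrX:45624929-45629427), where 8 regions of 44 to 453 nt (median 129.5 nt) covered 31.5% of 4.50 kb. With gaps of up to 3 kb, 38 regions from 1.2 kb downstream to 24.2 kb upstream of miR-222 joined into 1 group that covered 13.3% of 25.5 kb, and a gap of 4.30 kb followed it. A smaller group of 8 regions, 22 to 180 nt wide, lay at 62.0 to 70.1 kb (chrX:45668401-45676537).

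On average, regions were denser over the distances that the annotated host gene spans than beyond them. MIR222HG, a long noncoding RNA gene that hosts both microRNAs, is listed in GENCODE release 29 and in RefSeq with a length of 25.1 kb. It runs from 1.8 kb downstream to 23.3 kb upstream of the lowest coordinate of the miR-222 hairpin, the hairpin's downstream end on this strand. These lengths were measured in GRCh38, no position was carried over to hg19, and differences between the builds within this interval were not checked. The distances are therefore set side by side, and no region was assigned to an exon or intron. In the range of distances that MIR222HG spans, the list held 37 of the 77 minus-strand regions, or 14.8 per 10 kb, covering 13.1% of the range. A shift of that range by 0.1 kb either way, the precision of the hairpin position, left the count at 37. A shift by 0.5 kb upstream also left it at 37. A shift by 0.5 kb downstream gave 36 regions covering 11.3%, because the midpoint of the widest region then fell outside. How far the group beside the hairpins reached depended on the joining distance: it ended 1.7 kb upstream at gaps of up to 1 kb (2.91 kb long), 24.2 kb upstream at 3 kb (25.5 kb long) and 30.6 kb upstream at 5 kb (31.8 kb long), so its length gives no end of the transcript.

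Beyond the annotated host gene, m6A regions continued at a lower mean density. The next gene upstream in GENCODE is LINC02595, a long noncoding RNA gene on the same strand that begins 104.5 kb and ends 101.1 kb upstream of miR-222, and RefSeq gives LINC02595 as another name of MIR222HG. GENCODE lists 0 genes of any kind on either strand in the 77.8 kb between them. In this range of distances the list held 39 minus-strand regions (50.6%), or 5.01 per 10 kb, covering 3.12% of it. This average includes the tight group at 90.5 to 97.3 kb, where 12 regions covered 12.5% of 6.81 kb. That share is close to the 13.1% of the MIR222HG range, so the lower density did not hold throughout. The most upstream region, at 102.6 to 102.7 kb, fell within the distances that LINC02595 spans. The nearest protein-coding genes, KRBOX4 and CXorf36, lie 699.8 kb upstream and 546.1 kb downstream of miR-222 in GRCh38.

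The exons of MIR222HG lie at the 2 ends of the gene, and both hairpins lie in the intron of its transcript MIR222HG-201. Its last exon spans 0.9 to 1.8 kb downstream of miR-222 and its first exon 22.8 to 23.3 kb upstream, while MIR222HG-202 has exons at 21.4 to 22.9 kb and 23.1 to 23.3 kb. At the distances of the last exon stood the m6A regions of 102 and 49 nt at 1.0 to 1.2 kb downstream. At those of the upstream exons stood the widest region (453 nt) at 22.6 to 23.0 kb and the narrow regions chrX:45628542-45628590 (49 nt) at 22.1 to 22.2 kb and chrX:45628730-45628773 (44 nt) at 22.3 to 22.4 kb. The third widest region (205 nt), at 21.2 to 21.4 kb, reached the edge of the longer exon of MIR222HG-202 and lay mostly outside it. The second widest region (320 nt), at 20 to 20.3 kb, and the regions nearer to the hairpins stood at distances of the intron of MIR222HG-201. GGAC occurred 3 times in the 1379 nt of MIR222HG-201 (2.18 per kb), 0 times in the 1758 nt of MIR222HG-202 and 2 times in the 375 nt of LINC02595-201 (5.33 per kb), where all lincRNA transcripts of GENCODE had 3.51 per kb. Of 1359 lincRNA transcripts whose length was within 20% of that of MIR222HG-202, 99.2% held GGAC. These counts cover the joined exons only and say nothing of methylation at other sequences or in introns. No sequence of an m6A region was read.

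The annotated start of MIR222HG, 23.3 kb upstream, is shown because the widest region of the locus stood within 1 kb of that distance. The sequence is RefSeq's, GRCh38.p14, minus strand, chrX:45770218-45770517, from 250 bases before to 50 after the start, with the motif TATAA in capitals.
MIR222HG promoter: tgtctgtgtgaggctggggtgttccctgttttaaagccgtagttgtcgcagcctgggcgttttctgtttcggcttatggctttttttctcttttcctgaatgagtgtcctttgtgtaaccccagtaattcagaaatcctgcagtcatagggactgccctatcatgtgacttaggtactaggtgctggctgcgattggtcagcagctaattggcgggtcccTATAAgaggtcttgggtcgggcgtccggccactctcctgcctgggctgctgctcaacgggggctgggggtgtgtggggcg
TATAA was searched on both strands. It occurred 1 time on the gene's own strand, the one printed, with its first base 30 bases before the annotated start. On the other strand it occurred 0 times. Over 35116 promoters of the same length, 20.4% held TATAA on either strand. Within the last 50 bases before the start, 4.74% held it on their gene's own strand. The match describes these letters only, and no m6A region stood at the distances of this window.

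Within the list, the miR-221 and miR-222 locus was among the densest stretches. Its 77 minus-strand regions formed 1 chain when neighbours up to 10 kb apart were joined, and ranked 3rd in number of regions among 16073 such chains. For a comparison by window, the locus kept its own window of 112 kb. The other minus-strand regions were counted in stretches of 112 kb tiled from the start of each chromosome. Of 5441 stretches with a minus-strand region, the locus among them, 3 others held as many or more minus-strand regions. The median of the others was 2 and the highest 115. The window of the locus was drawn around its regions, whereas the tiles were not fitted and could cut other dense loci. The median gap between neighbours was 726.5 nt in the locus and 4.69 kb over the list, and 65.8% of the locus's gaps were at most 1 kb, against 24.6% over the list. These figures follow from how the members were chosen.

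Compared with the 3 chains next to it in number of regions, all on the minus strand, the miR-221 and miR-222 chain on chromosome X had fewer of its regions in its middle. The chains lay at chr11:121960534-122051177 with 91 regions, chr9:69809229-69882514 with 75 and chr1:94027451-94147353 with 71. With each chain cut into 3 parts of equal length, the chromosome X chain had 41 regions in the downstream part (53.2%), 14 in the middle part (18.2%) and 22 in the upstream part (28.6%). The middle part held 36 of 91 regions in the chromosome 11 chain (39.6%), 25 of 75 in the chromosome 9 chain (33.3%) and 26 of 71 in the chromosome 1 chain (36.6%). The downstream part held 26.4%, 33.3% and 25.4% of the regions in those chains. Each chain is 1 locus without a repeat, so these differences were not tested. How uniquely reads align within each chain was not examined.

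The 4 chains had the same median width, 49 nt, and regions wider than 100 nt made up 20.8% of the chromosome X chain, 15.4% of the chromosome 11 chain, 18.7% of the chromosome 9 chain and 23.9% of the chromosome 1 chain. The chromosome X chain reached the greatest single width of the 4, 453 nt, against 219, 426 and 373 nt in the chains of chromosomes 11, 9 and 1. Per 10 kb it held 7.41 regions, fewer than the chains of chromosomes 11 (10.0) and 9 (10.2) and more than that of chromosome 1 (5.92).

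**Figure D4:**
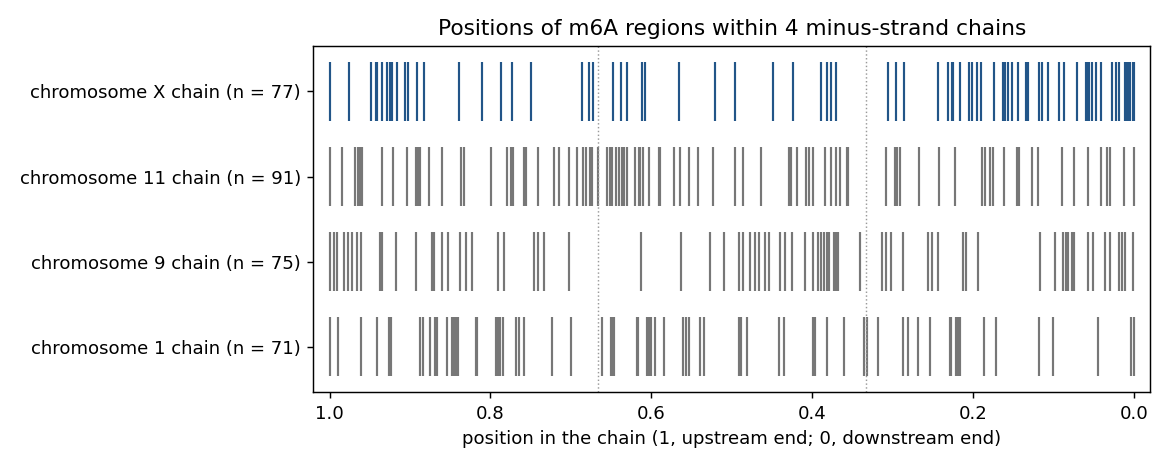
Position of each m6A region (vertical tick) within 4 minus-strand chains, scaled from 1 at the upstream end to 0 at the downstream end, with dotted lines between 3 parts of equal length. The chromosome X chain of miR-221 and miR-222 (top) has 41 of its 77 regions in the downstream part and 14 in the middle part.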

How the data were processed

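m6A immunoprecipitates of nuclear RNA (2 libraries) and an IgG control (1 library) from MDA-MB-231 cells were sequenced after ScriptSeq V2 library preparation, per the labels' protocols. Per the submitters' processing notes, Bowtie2 and hg19 were used for alignment. The sources used here give neither the peak caller and its thresholds nor the use of IgG or the joining of the m6A libraries. Each of the 41836 regions deposited has a position, a strand, a name and a score. The score as deposited is 1 for every region and carries no height, so start and end are the only measurements, and depth is unknown.

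From the positions, regions with a midpoint in the window were taken as members, and width, gap, distance from the miR-222 hairpin and chains (same strand, gaps of at most 10 kb) were computed. Hairpin positions in hg19 were those that define the locus, to 0.1 kb. No genome of hg19 was used, so no sequence of a region was read. Distances of annotated features were measured within GRCh38. No test was made, because 1 list has no replicates and its density chose the members. The members and comparisons were chosen with earlier results of these data known. The widest regions, those nearest the hairpins, the chain's ends, the edges of the 3 largest gaps and each plus-strand region were named. Chain and window functions were checked on simulated regions. Values were computed in Python 3.11.15 with pandas 2.3.3, scipy 1.17.1 and numpy 2.4.6, and drawn with matplotlib 3.10.9.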

Additional observations from a re-analysis of the deposited data

How the results depend on the processing

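Each of 8 descriptive values was recomputed under other settings. The minus-strand count of 77 became 61 with the window 10 kb narrower at each end and 54 among regions wider than the list's median of 45 nt, and remained 77 with the window 10 kb wider or with overlap in place of midpoint. Among the wider regions the minus-strand share moved from 98.7% to 100%, because the plus-strand region is 35 nt wide. The single chain became 27 chains at a joining distance of 1 kb, 10 at 3 kb and 3 at 5 kb, which follows from the shorter distance. The median width was 53 nt without regions of 49 nt, and the median gap 937 nt among the wider regions. The share of minus-strand regions nearer to the hairpin pair than to the upstream end of the window was 62.3%. With the span from the first to the last region cut at its midpoint instead, the downstream part also held 62.3%. The locus, kept in its own window, ranked 4th by number among tiled stretches of 112 kb. It ranked 3rd with the other stretches offset by 56 kb, or by bases covered. The offset moved only the other stretches, so how the rank would change if the locus were tiled too was not tested. No paired analysis was possible because the list has no value for a single library; for the same reason no library could be left out, and with 1 score for all regions no stricter score could be set.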
